A study of Homo sapiens with 6 samples.

Results

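The aminoacyl-tRNA synthetase genes encode the enzymes that join each amino acid to its transfer RNA. They were taken as the protein-coding genes of the count table whose symbol is 1 letter followed by ARS, with or without a closing 1 or 2, together with EPRS, FARSA, FARSB and TARSL2. This gave 38 of the 34036 genes in the table, of which 21 belong to the cytosolic set and 17, whose symbols end in 2, to the mitochondrial set, with TARSL2 placed in the cytosolic one. All 38 passed the filter on low counts that left 14476 genes to test.

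HepG2 is an established human line derived from a hepatocellular carcinoma. Its cells were transfected by Lipofectamine RNAiMAX either with a non-targeting siRNA (siControl) or with a siGENOME pool of siRNAs directed against DGUOK (siDGUOK), and RNA was collected 48 h later. Each group had 3 libraries, described as independent biological replicates that were prepared and sequenced together, and the p-values measure the spread between these samples. The groups were read from sample titles and library names, because the treatment field names siControl for all 6 samples. The molecule field gives polyA RNA, while the protocol leaves the choice between poly(A) selection and rRNA depletion, and the kit, unfilled. Library totals were 19065684, 18915508 and 10527216 counts for siControl replicates 1, 2 and 3. For siDGUOK replicates 1, 2 and 3 they were 18613138, 15978314 and 21334876 counts.

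The targeted gene, DGUOK, encodes the mitochondrial kinase that phosphorylates deoxyguanosine. It stood at 54.4, 53.1 and 48.2 CPM in siControl replicates 1, 2 and 3 and 9.08, 10.5 and 6.72 CPM in siDGUOK replicates 1, 2 and 3, where CPM is the usual count scale relative to library size, here with library sizes scaled by TMM. The siDGUOK libraries were all below the siControl libraries, with a log2 fold change of −2.57 ± 0.19 (SE, edgeR adjusted p = 1.64e-08). HepG2 identity was checked with 9 hepatocyte markers. Albumin (ALB) was at 18791, 14273 and 15276 CPM in the siControl libraries and 6328, 5595 and 4279.8 CPM in the siDGUOK libraries, and alpha-fetoprotein (AFP) was at 3869, 3567 and 3376 CPM in the siControl libraries and 1546, 1430.5 and 1088 CPM in the siDGUOK libraries. Both markers were abundant in each library and lower in the siDGUOK cells. Of the 9 markers 8 were called lower, as defined below, beside 6.68% of all genes tested. The summed level of the 9 was 52875, 47121 and 46127 CPM in the siControl libraries and 27418, 23922 and 22503 CPM in the siDGUOK libraries. SERPINA1 was the exception, at a log2 fold change of 0.02. In bulk RNA, fewer cells of a type cannot be told apart from less RNA of a gene per cell.

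Markers of leukocytes, macrophages, fibroblasts and endothelium were low. The 10 genes summed to 37.9, 35.3 and 29.7 CPM in the siControl libraries and 62.8, 114 and 50.7 CPM in the siDGUOK libraries. The most abundant in siControl cells was ACTA2, at 32.05, 26.6 and 26.2 CPM in the siControl libraries and 27.7, 21.4 and 25.9 CPM in the siDGUOK libraries. KDR had no count in any siControl library. Of the 9 markers tested 1 was called, COL1A1, which was higher, beside 7.42% of all genes tested called higher. COL1A1 was at 0.481, 1.97 and 1.05 CPM in the siControl libraries and 20.2, 20.7 and 17.4 CPM in the siDGUOK libraries. DESeq2 called COL1A1 and also KDR, which was too low to be tested by edgeR, at 0 counts in siControl cells and 0.702, 2.34 and 0 CPM in siDGUOK replicates 1, 2 and 3. Named after their values were seen, the endothelial genes VWF and PECAM1 were at 31.4 and 15.9 CPM in siDGUOK replicate 2. The part of these markers in the results on synthetase genes was not tested. Without siDGUOK replicate 2, 6 synthetase genes were called, against 5 with all libraries. Over all genes, 1821 were called in that fit, against 2041 with all libraries.

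Each synthetase recognizes 1 amino acid, activates it with ATP and transfers it to the matching tRNAs, and its accuracy sets the fidelity of translation. Cytosolic enzymes serve the ribosomes that translate nuclear genes, and a separate set, encoded in the nucleus and imported, charges the tRNAs encoded by mitochondrial DNA. The enzymes fall into class I and class II by the fold of their catalytic domain, and several cytosolic ones sit together in a multisynthetase complex. Uncharged tRNA activates the kinase GCN2, and the transcription factor ATF4, made in greater amounts under this stress, is known to raise many cytosolic synthetase genes.

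A gene was called where the adjusted p of edgeR's quasi-likelihood test was under 0.05 and its log2 fold change was above 0.5 in size. In the synthetase set 5 of 38 genes were called, against 14.1% of all genes tested. Of these, 3 were higher, against 7.42% of all genes, and 2 were lower, against 6.68%. At the adjusted p alone 12 passed, against 19.7% of all genes, and for 17 the libraries of the 2 groups did not overlap, against 36.0%. The calls covered 2 cytosolic genes, CARS and WARS, both higher, and 3 mitochondrial genes, of which HARS2 was higher and EARS2 and NARS2 were lower. The median log2 fold change was 0.08 for cytosolic genes and −0.29 for mitochondrial genes, beside 0.02 over all genes tested. Positive values were found for 12 of the 21 cytosolic genes and for 3 of the 17 mitochondrial genes. Over all genes tested, 7450 of 14476 were positive. The number called was near the share of all genes, and the difference between the cytosolic and mitochondrial medians is given without a test.

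**Figure D1:**
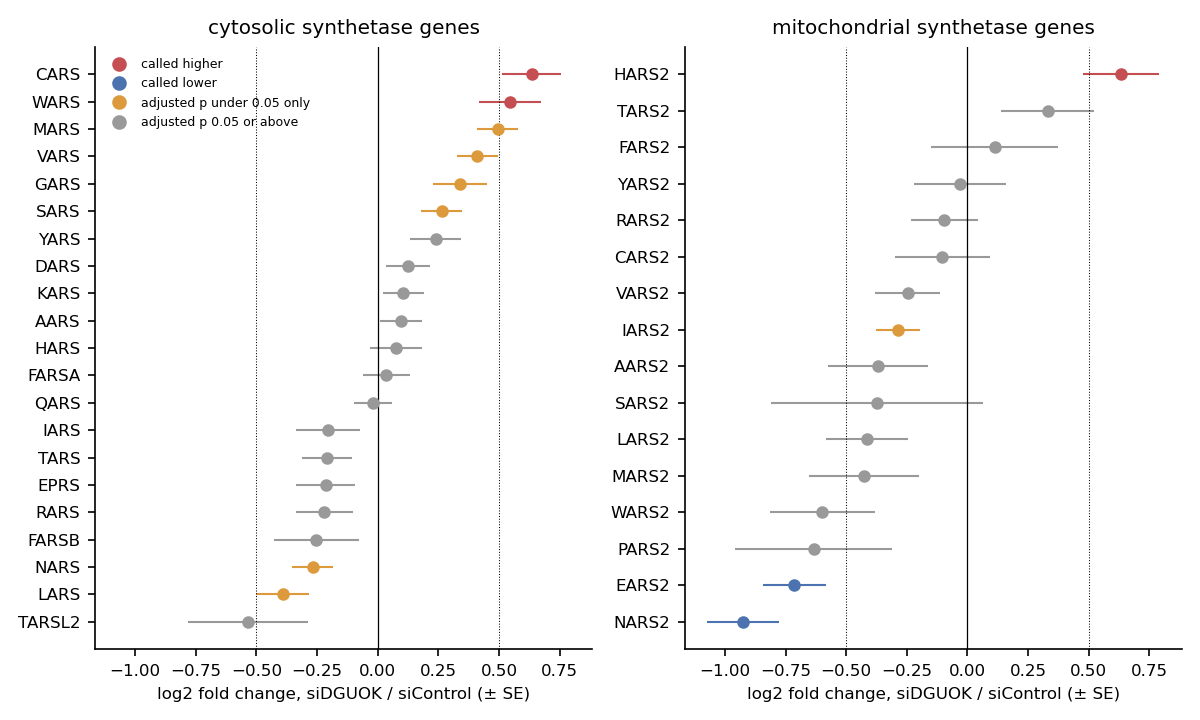
Log2 fold change of the synthetase genes reported, in siDGUOK against siControl cells, cytosolic genes on the left and mitochondrial genes on the right, with standard errors as bars (n = 3 libraries a group) and dotted lines at −0.5 and 0.5. The called genes are CARS, WARS and HARS2 on the positive side and EARS2 and NARS2 on the negative side, and the mitochondrial values drawn are below 0 except for HARS2, TARS2 and FARS2.

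The levels differed widely among the members. Levels are compared between genes as CPM per kb of the canonical transcript in Gencode 44. In siControl cells the highest was QARS, the glutaminyl-tRNA synthetase gene, at 114 ± 7.15 CPM per kb (SD, n = 3), followed by KARS at 112 ± 2.53 and SARS at 104 ± 7.10. QARS and KARS did not differ beyond their spread. The lowest was SARS2, the mitochondrial seryl-tRNA synthetase gene, at 2.51 ± 0.580 CPM per kb, and PARS2 was next at 3.66 ± 0.270. IARS2, the mitochondrial isoleucyl enzyme, had the highest level of the mitochondrial set, at 37.03 ± 0.953 CPM per kb, close to 38.02 ± 8.09 for cytosolic IARS. QARS stood at 268, 300.0 and 271 CPM in the siControl libraries and 263, 286 and 279 CPM in the siDGUOK libraries, and the groups overlapped. SARS2 stood at 3.74, 5.97 and 4.77 CPM in the siControl libraries and 3.67, 3.82 and 3.68 CPM in the siDGUOK libraries, also overlapping. Exons of another protein-coding gene of the count table cover 77.5% of the canonical SARS2 exons on the same strand, so reads shared by both may have been left out and the SARS2 level is uncertain.

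Among cytosolic genes, the rises were led by CARS, which encodes cysteinyl-tRNA synthetase (ENSG00000110619.17, chromosome 11 from 3000922 to 3057613 on the minus strand in Gencode 44, GRCh38). Its level was 54.96, 59.1 and 72.1 CPM in siControl replicates 1, 2 and 3 and 89.2, 103 and 95.5 CPM in siDGUOK replicates 1, 2 and 3. Every siDGUOK library lay above every siControl library. The log2 fold change was 0.63 ± 0.12 (SE, edgeR adjusted p = 8.36e-04). WARS encodes tryptophanyl-tRNA synthetase, known to be induced by interferon (ENSG00000140105.17, chromosome 14 from 100333790 to 100376805 on the minus strand). It was at 54.6, 56.8 and 65.4 CPM in siControl replicates 1, 2 and 3 and 74.6, 83.3 and 99.7 CPM in siDGUOK replicates 1, 2 and 3. The siDGUOK values were again all above the siControl values, and siDGUOK replicate 3 was the highest. This was a log2 fold change of 0.55 ± 0.13 (SE, edgeR adjusted p = 0.00457). The WARS call was lost without siControl replicate 1, where the log2 fold change was 0.495, and without siDGUOK replicate 3, where it was 0.42, so that 1 cytosolic gene was called in either case. Exons of an antisense gene cover 5.77% of the canonical CARS exons and 7.31% of those of WARS, and reads there cannot be assigned without strand.

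MARS, the methionyl-tRNA synthetase gene, had 159.7, 161 and 176 CPM in siControl replicates 1, 2 and 3 and 216, 237 and 247 CPM in siDGUOK replicates 1, 2 and 3. The groups were apart, with siControl replicate 3 nearest to the siDGUOK values. Its log2 fold change of 0.495 ± 0.09 (SE, edgeR adjusted p = 3.47e-04) was just under the size for a call. Without siControl replicate 3 or siDGUOK replicate 1 it was 0.54 or 0.53 and called. Exons of DDIT3, on the opposite strand, cover 65 bases of its canonical exons, or 2.32%. VARS, which encodes valyl-tRNA synthetase, was at 173, 169 and 165 CPM in siControl replicates 1, 2 and 3 and 219, 211 and 244 CPM in siDGUOK replicates 1, 2 and 3. The groups did not overlap, and siDGUOK replicate 3 was the highest. It had a log2 fold change of 0.41 ± 0.08 (SE, edgeR adjusted p = 0.00168). GARS, the glycyl-tRNA synthetase gene whose enzyme serves both the cytosol and mitochondria, was at 132, 97.7 and 121 CPM in siControl replicates 1, 2 and 3 and 153, 132 and 157 CPM in siDGUOK replicates 1, 2 and 3. The lowest siDGUOK library, replicate 2, was just above the highest siControl library, replicate 1. Exons of GARS1-DT, on the opposite strand, cover 10.9% of the canonical GARS exons. The log2 fold change of GARS was 0.34 ± 0.11 (SE, edgeR adjusted p = 0.0397), and its adjusted p ran from 0.0105 to 0.177 over the alternatives. SARS, the seryl-tRNA synthetase gene, also passed the adjusted p alone, with a log2 fold change of 0.26 ± 0.09 (SE, edgeR adjusted p = 0.0355) and a range of adjusted p from 0.0267 to 0.145 over the alternatives.

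**Figure D2:**
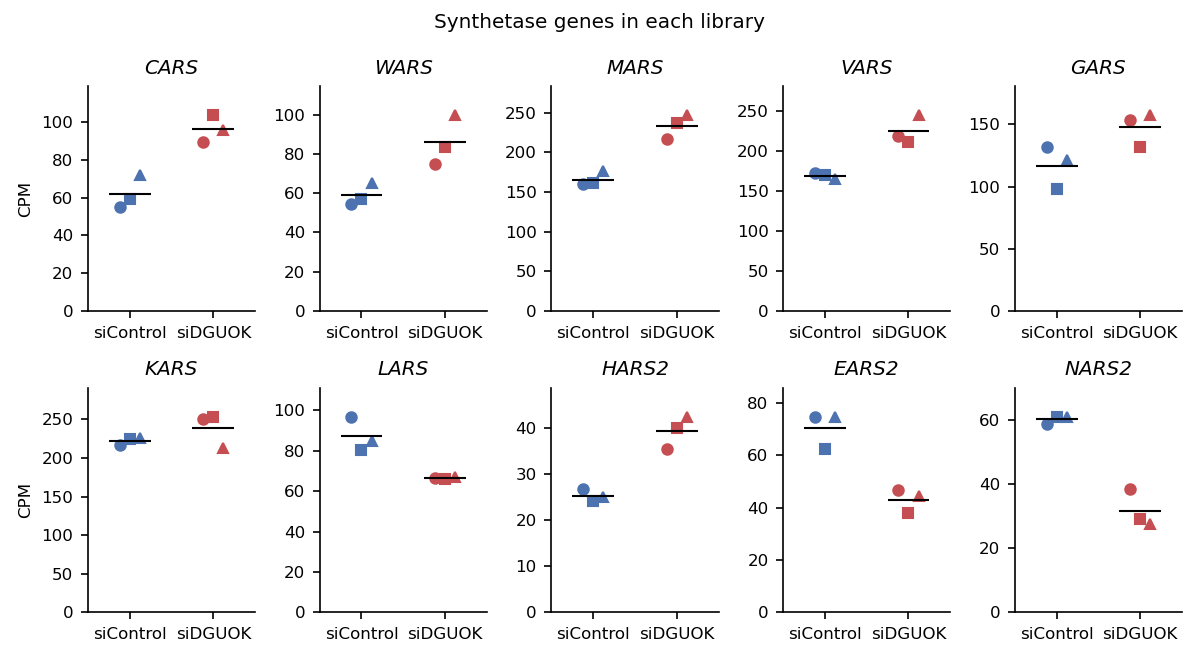
Level of 10 synthetase genes in each library, in CPM on axes that start at 0, with siControl in blue, siDGUOK in red, replicates 1, 2 and 3 as circle, square and triangle, and group means as lines. The siDGUOK libraries of CARS lie between 89.2 and 103 CPM, above its siControl libraries, those of NARS2 lie between 27.7 and 38.5 CPM, below its siControl libraries, and the groups overlap for KARS.

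Promoter letters are shown for some members that rose and for AARS and IARS, which have the same letters and did not pass the test. RefSeq's promoter table (GRCh38.p14) held 39 starts for 30 of the 38 members, and the 250 bases before each start were searched on both strands for 4 motifs, which were chosen after the values of the genes were seen. TGATGNAA, a core that ATF4 dimers are known to bind, was present before 4 of the 39 starts (AARS, GARS, IARS and YARS2) and in 3.14% of all 35116 promoters. GAAANNGAA, the core of the interferon-stimulated response element, was present before 5 of the 39 starts and in 6.88% of all promoters. These starts belong to 4 members (GARS, IARS, WARS and EARS2). The stretches are printed 5′ to 3′ on the gene's strand with up to 10 bases on each side and the match in capitals, which is the reverse complement of the motif in AARS, GARS and IARS. The match lies 55 bases before a start of WARS, and 33, 187 and 13 bases before those of GARS, AARS and IARS.
WARS, chr14:100375384-100375412, minus strand: tttcagaaggGAAACTGAAagaaagaggg
GARS, chr7:30594835-30594862, plus strand: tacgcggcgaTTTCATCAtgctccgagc
AARS, chr16:70289676-70289703, minus strand: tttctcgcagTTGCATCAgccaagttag
IARS, chr9:92293698-92293720, minus strand: tttcagcgcgTTGCATCAcctcc
WARS was called higher and GARS passed the adjusted p alone. AARS, the alanyl enzyme, had a log2 fold change of 0.10 (edgeR adjusted p = 0.511), and IARS, the isoleucyl enzyme, had −0.21 (edgeR adjusted p = 0.326). Both moved with 1 library left out. AARS was at 0.0027 without siDGUOK replicate 3, and IARS was at −0.37 without siControl replicate 2, where it passed the test as a fall (edgeR adjusted p = 0.0271, in a range of 0.0271 to 0.762 over its alternatives). YARS2, whose TGATGNAA match lies 197 bases before a start and is not printed, had a log2 fold change of −0.03 (edgeR adjusted p = 0.945). The called gene CARS had no match of the 4 motifs in its windows. The printed stretches each overlap a coding exon or UTR of a Gencode 44 transcript. A match is a description of letters only.

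Falls among the cytosolic genes that passed the adjusted p were those of LARS and NARS. LARS encodes leucyl-tRNA synthetase, an enzyme that also senses leucine for the mTORC1 pathway, and was at 96.7, 80.3 and 84.7 CPM in siControl replicates 1, 2 and 3 and 66.4, 66.2 and 66.99 CPM in siDGUOK replicates 1, 2 and 3. The siDGUOK libraries were close together and below each siControl library. The log2 fold change of −0.39 ± 0.11 (SE, edgeR adjusted p = 0.0164) was under the size for a call, and its adjusted p ran from 0.00671 to 0.0878 over the alternatives. NARS, the asparaginyl-tRNA synthetase gene, had a log2 fold change of −0.27 ± 0.09 (SE, edgeR adjusted p = 0.0336), with adjusted p from 0.0174 to 0.162 over the alternatives. KARS, whose lysyl enzyme serves both compartments through alternative splicing, was at 217, 225 and 226 CPM in siControl replicates 1, 2 and 3 and 251, 253 and 213 CPM in siDGUOK replicates 1, 2 and 3. Its siDGUOK replicate 3 lay below all siControl libraries and the other two above them, and the log2 fold change was 0.11 ± 0.09 (SE, edgeR adjusted p = 0.457). FARSA and FARSB, the alpha and beta subunits of phenylalanyl-tRNA synthetase, had log2 fold changes of 0.04 and −0.25 and overlapping groups. TARSL2, a paralog of threonyl-tRNA synthetase TARS, had the lowest log2 fold change of the cytosolic set at −0.54 ± 0.25 (SE, edgeR adjusted p = 0.153), although its siDGUOK libraries were all below its siControl libraries. The remaining cytosolic members, AARS, DARS, EPRS, HARS, IARS, QARS, RARS, TARS and YARS, overlapped between groups.

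The 8 synthetases of the multisynthetase complex, DARS, EPRS, IARS, KARS, LARS, MARS, QARS and RARS, had a median log2 fold change of −0.11. None was called by edgeR, 0 by DESeq2, and 2 had an unadjusted p under 0.05, LARS and MARS, which also passed the adjusted p alone. Of all genes tested, 30.6% had an unadjusted p under 0.05. MARS, at 0.495, was called without a low-count filter, and without siControl replicate 3 or siDGUOK replicate 1. The other 13 cytosolic genes had a median of 0.10, with 2 called and 6 past the adjusted p alone, beside 14.1% and 19.7% of all genes tested. By catalytic class, 5 of 9 class I cytosolic genes and 3 of 11 class II cytosolic genes passed the adjusted p alone, with EPRS, which joins both classes, left out. The share of all genes was 19.7%, and neither the difference between classes nor that between the complex and the other genes was tested. All 9 class I mitochondrial genes had negative log2 fold changes, from −0.71 to −0.03, although CARS2, RARS2 and YARS2 changed sign when 1 library was left out. The class II mitochondrial genes ranged from −0.92 to 0.63.

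The non-catalytic scaffolds of the complex were measured beside it. AIMP1 was at 57.3, 55.9 and 62.8 CPM in the siControl libraries and 85.4, 83.4 and 83.1 CPM in the siDGUOK libraries, and EEF1E1, also known as AIMP3, was at 18.1, 16.7 and 20.02 CPM in the siControl libraries and 37.6, 36.9 and 29.9 CPM in the siDGUOK libraries. Both were called higher, with every siDGUOK library above every siControl library and log2 fold changes of 0.52 ± 0.11 (SE, edgeR adjusted p = 0.00217) and 0.93 ± 0.18 (SE, edgeR adjusted p = 8.27e-04). AIMP2 was at 33.4, 44.4 and 26.98 CPM in the siControl libraries and 33.2, 40.01 and 27.8 CPM in the siDGUOK libraries. Its groups overlapped, and its log2 fold change was −0.06 ± 0.19 (SE, edgeR adjusted p = 0.884). Thus 2 of 3 scaffold genes were called higher, beside 7.42% of all genes tested, and the median of the 3 was 0.52.

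Mitochondrial synthetase genes gave the largest fall of the family. NARS2, which charges mitochondrial asparagine tRNA (ENSG00000137513.9, chromosome 11 from 78435620 to 78575194 on the minus strand), was at 58.97, 61.1 and 61.01 CPM in siControl replicates 1, 2 and 3 and 38.5, 29.2 and 27.7 CPM in siDGUOK replicates 1, 2 and 3. The siControl libraries were close together and all siDGUOK libraries were below them. The log2 fold change was −0.92 ± 0.15 (SE, edgeR adjusted p = 1.57e-04). EARS2, the mitochondrial glutamyl-tRNA synthetase gene, which also charges glutamine tRNA with glutamate (ENSG00000103356.15, chromosome 16 from 23520754 to 23557731 on the minus strand), was at 74.5, 62.5 and 74.6 CPM in siControl replicates 1, 2 and 3 and 46.6, 37.9 and 44.4 CPM in siDGUOK replicates 1, 2 and 3. Again all siDGUOK values lay below all siControl values. The log2 fold change was −0.71 ± 0.13 (SE, edgeR adjusted p = 6.12e-04). In the opposite direction, HARS2, the mitochondrial histidyl enzyme (ENSG00000112855.14, chromosome 5 from 140691430 to 140699305 on the plus strand), was at 26.9, 24.1 and 24.98 CPM in siControl replicates 1, 2 and 3 and 35.4, 40.1 and 42.5 CPM in siDGUOK replicates 1, 2 and 3. All siDGUOK libraries were above the siControl libraries, with a log2 fold change of 0.63 ± 0.16 (SE, edgeR adjusted p = 0.00711). The calls of NARS2, EARS2, HARS2 and cytosolic CARS held in each of the 15 alternatives that kept the fold change threshold. Exons of other genes cover 3.90%, 3.91% and 9.52% of the canonical exons of NARS2, EARS2 and HARS2.

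HARS2 and HARS start 85 bases apart on opposite strands in RefSeq, so that both genes share a promoter region. Cytosolic HARS was at 82.1, 76.5 and 68.4 CPM in the siControl libraries and 80.4, 80.1 and 79.04 CPM in the siDGUOK libraries, overlapping, with a log2 fold change of 0.08 ± 0.11 (SE, edgeR adjusted p = 0.718). Exons of WDR55, on the opposite strand, cover 11.3% of the canonical HARS exons. HARS exons are among those that cover 9.52% of the canonical HARS2 exons, so reads shared by both genes may have been left out. The difference in response of both neighbours was not tested. For the mitochondrial genes that passed the adjusted p, matches to 3 motifs are shown, among them CACGTG and GCGCNTGCG. CACGTG, the E-box, was present before 3 of the 39 starts (IARS, EARS2 and MARS2) and in 6.34% of all promoters. GCGCNTGCG is a core of the site known for NRF1, a factor of nuclear genes for mitochondrial proteins. It was present before 7 of the 39 starts, those of 6 members, and in 6.54% of all promoters. The members with the NRF1-type core were the cytosolic genes NARS, SARS and TARS and the mitochondrial genes HARS2, IARS2 and MARS2, of which TARS and MARS2 did not pass the adjusted p. The EARS2 stretches hold the reverse complement of the interferon-type core and an E-box, 222 and 15 bases before a start, and those of HARS2 and IARS2 hold the NRF1-type core, 206 and 16 bases before a start, as its reverse complement in HARS2. The HARS2 match was found only after this motif had been shortened by 1 letter. The IARS2 stretch touches no coding exon or UTR of Gencode 44, and those of EARS2 and HARS2 do.
EARS2, chr16:23557554-23557582, minus strand: ctgccacgctTTCGCTTTCccaagctgaa
EARS2, chr16:23557351-23557375, minus strand: gggagaagccCACGTGtgctattcc
HARS2, chr5:140691239-140691267, plus strand: cttgaggcctCGCACGCGCtctccctgaa
IARS2, chr1:220094106-220094131, plus strand: cgctcccggaGCGCGTGCGccctctt
EARS2 and IARS2 were lower and HARS2 was higher in siDGUOK cells. NARS2, the most changed, had no match of the 4 motifs in its window.

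IARS2 was the only other mitochondrial gene past the adjusted p. It was at 127, 132 and 133 CPM in siControl replicates 1, 2 and 3 and 104, 105 and 112 CPM in siDGUOK replicates 1, 2 and 3. The groups were apart, and the fall was small, with a log2 fold change of −0.29 ± 0.09 (SE, edgeR adjusted p = 0.0318) and adjusted p from 0.0213 to 0.103 over the alternatives. Below the siControl libraries in every siDGUOK library, without passing the test, were LARS2, PARS2 and WARS2, the leucyl, prolyl and tryptophanyl enzymes, with log2 fold changes of −0.41, −0.63 and −0.60. LARS2 was called without siDGUOK replicate 2, at −0.58 (edgeR adjusted p = 0.0329, in a range of 0.0329 to 0.334 over its alternatives). TARS2, the threonyl enzyme, had siDGUOK values above its siControl values and a log2 fold change of 0.33 (edgeR adjusted p = 0.273). The groups overlapped for AARS2, CARS2, FARS2, MARS2, RARS2, SARS2, VARS2 and YARS2, whose log2 fold changes ran from −0.43 for MARS2 to 0.11 for FARS2. PARS2 and SARS2 were the least abundant members, at 8.62 ± 0.635 and 4.82 ± 1.12 CPM (SD, n = 3) in siControl cells, and their standard errors of 0.32 and 0.44 were the largest of the family.

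Summed over its 17 genes, the mitochondrial set stood at 658, 634 and 652 CPM in siControl replicates 1, 2 and 3 and at 536, 525 and 553 CPM in siDGUOK replicates 1, 2 and 3. The cytosolic set of 21 genes summed to 3074, 2891 and 3032 CPM in the siControl libraries and to 3108, 3208 and 3239 CPM in the siDGUOK libraries. The sums of both sets did not overlap between groups, the mitochondrial one lower and the cytosolic one higher in siDGUOK cells. The mitochondrial share of the summed CPM of all 38 genes was 17.8% ± 0.181 in siControl cells and 14.45% ± 0.342 in siDGUOK cells (SD, n = 3). These sums weigh abundant genes most and carry no test. GARS and KARS, whose enzymes serve both compartments, are counted in the cytosolic sum only. Their means were 117 and 222 CPM in siControl cells and 148 and 239 CPM in siDGUOK cells. The mitochondrial sum and share thus leave out the glycyl and lysyl enzymes of mitochondria. The median of the genes' log2 differences from the siControl mean weighs each gene alike. By it the mitochondrial set was at −0.32, −0.30 and −0.22 in siDGUOK replicates 1, 2 and 3, and the cytosolic set at −0.03, 0.06 and 0.00. In siControl replicates 1, 2 and 3 the mitochondrial set was at 0.08, −0.07 and 0.02, and the cytosolic set at 0.07, −0.04 and 0.01. By this measure the groups overlapped for the cytosolic set and not for the mitochondrial set. The cytosolic median log2 fold change was 0.0027 without siDGUOK replicate 3, whereas the mitochondrial median ran from −0.32 to −0.24 over the alternatives.

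**Figure D3:**
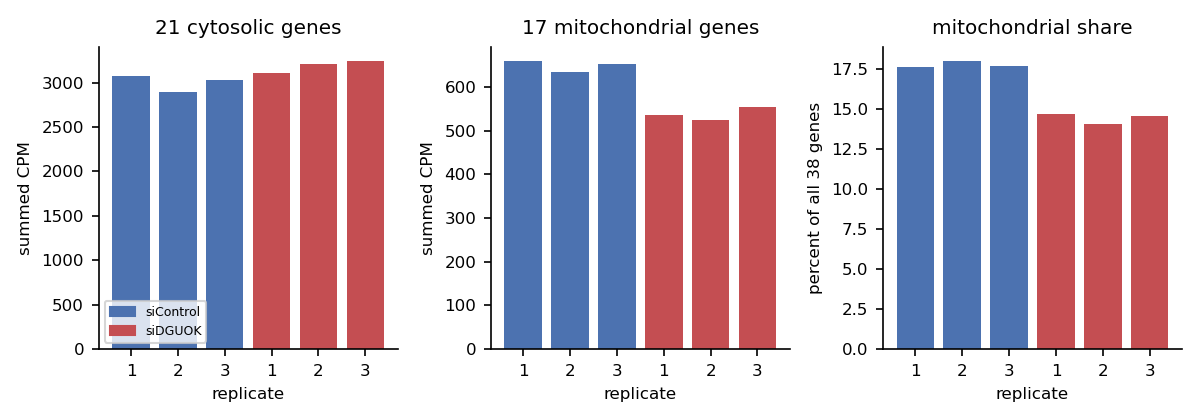
Summed CPM of the cytosolic genes, summed CPM of the mitochondrial genes, and the mitochondrial share in percent of all 38, one bar a library, siControl in blue and siDGUOK in red, with axes from 0. The mitochondrial share is between 14.1% and 14.7% in siDGUOK libraries and between 17.6% and 17.98% in siControl libraries. GARS and KARS, whose enzymes serve both compartments, are counted as cytosolic.

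Cytosolic and mitochondrial genes for the same amino acid were set side by side in 16 pairs, with EPRS standing in both the glutamate and the proline pair. FARSA and TARS stood for phenylalanine and threonine, and FARSB and TARSL2, which had log2 fold changes of −0.25 and −0.54, were left out of the pairs. In 12 pairs the mitochondrial log2 fold change was below the cytosolic one, and the median difference, mitochondrial minus cytosolic, was −0.44. With 1 library left out, this count ran from 11 to 13. The leucine difference was 0.06 without siControl replicate 2 and 0.14 without siDGUOK replicate 1, and it was also above 0 with shrunken fold changes of DESeq2. The isoleucine difference was 0.10 without siControl replicate 2. The phenylalanine difference was −0.04 without siControl replicate 2 and −0.23 without siDGUOK replicate 2. The ratio of mitochondrial to cytosolic CPM within a library was lower in all siDGUOK than in all siControl libraries for 9 pairs and higher in all of them for 2. Among single genes 36.0% did not overlap, and the share over pairs of other genes was not computed. The tryptophan pair differed most, with 0.55 for WARS and −0.60 for WARS2. With all libraries methionine followed, with a difference of −0.92 between MARS2 and MARS. Cysteine was second without siDGUOK replicate 3, at −0.92 against −0.72 for methionine, and without siControl replicate 2, at −0.88 against −0.87. Histidine and threonine went the other way, with differences of 0.56 and 0.54, as did arginine and phenylalanine, with smaller differences of 0.12 and 0.08. Leucine and isoleucine had the smallest falls of the mitochondrial gene relative to its partner, at −0.02 and −0.08. In CPM per kb, the mitochondrial gene of siControl cells was at 2.42% of the cytosolic level for serine, which rests on the uncertain SARS2 level, at 6.00% for alanine, and at 97.4% for isoleucine, the highest. The pairs share libraries and their differences were not tested.

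**Figure D4:**
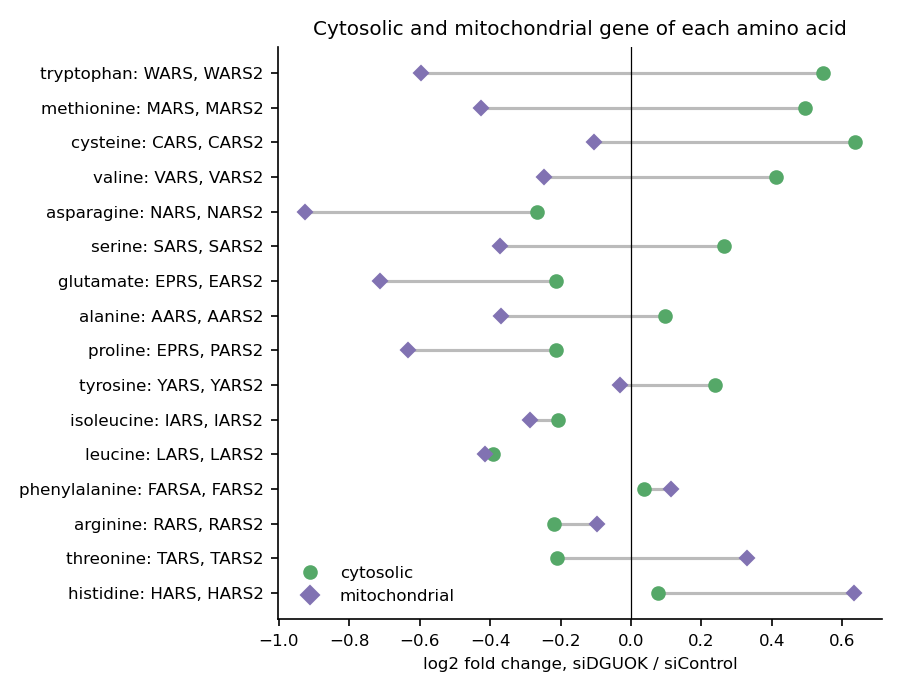
Log2 fold change of the cytosolic (circle) and mitochondrial (diamond) synthetase gene for each of 16 amino acids, joined by a line. The mitochondrial value lies to the left of the cytosolic one in 12 pairs, and histidine and threonine show the widest gaps to the right.

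Partners of the synthetases were read from lists of related genes. Of the mitochondrial enzymes that finish charged tRNA, GATB, GATC and QRSL1 form the amidotransferase that turns glutamate on glutamine tRNA into glutamine, and MTFMT formylates the initiator methionine tRNA. Their log2 fold changes were −0.08, 0.31, 0.06 and 0.08, with overlapping groups for each. No gene of these 4 was called by edgeR or by DESeq2, and 0 had an unadjusted p under 0.05, beside 14.1% of all genes tested called and 30.6% at the unadjusted p. For selenocysteinyl tRNA, SEPSECS, the last enzyme of its synthesis, was at 13.9, 12.4 and 15.3 CPM in the siControl libraries and 10.3, 5.97 and 8.51 CPM in the siDGUOK libraries. Its groups were apart, and its log2 fold change was −0.75 ± 0.27 (SE, edgeR adjusted p = 0.0640). The kinase PSTK had 0.45, the trans-editing genes DTD1 and DTD2 had 0.02 and 0.19, and PRORSD1P, a pseudogene in the count table, had 0.09, all with overlapping groups. AARSD1 had few or no counted reads in each library and was not tested. Reads shared by several genes were left out and its exon overlap was not examined, so its level is uncertain. Of the 5 genes tested here, 0 were called by edgeR and 0 by DESeq2, and 1 had an unadjusted p under 0.05, which with so few genes cannot be told from those shares.

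Among 21 genes of tRNA maturation and export, 2 were called higher and 0 lower by edgeR, beside 7.42% and 6.68% of all genes tested, and the median log2 fold change was 0.05. Of the list, 5 genes had an unadjusted p under 0.05, and DESeq2 called 1, POP4, but not KIAA0391, whose adjusted p there was 0.0552. KIAA0391, also known as PRORP, is the nuclease of mitochondrial RNase P, and was at 8.07, 11.3 and 6.86 CPM in the siControl libraries and 12.4, 18.1 and 16.6 CPM in the siDGUOK libraries. POP4, a subunit of nuclear RNase P, went from 21.3 ± 2.52 to 33.1 ± 4.65 CPM (SD, n = 3). Both were above siControl in every siDGUOK library, with log2 fold changes of 0.83 (edgeR adjusted p = 0.0357) and 0.64 (edgeR adjusted p = 0.0156). The factors that carry charged tRNA to ribosomes gave 0 calls by edgeR and 0 by DESeq2 among 7 genes, with 4 at an unadjusted p under 0.05, beside 30.6% of all genes tested, and a median of 0.27. EEF1A1, the main cytosolic factor, was at 14687, 13918 and 14358 CPM in the siControl libraries and 17722, 17339.8 and 16856 CPM in the siDGUOK libraries. EEF1B2, its exchange factor, was at 813, 807 and 855 CPM in the siControl libraries and 1012, 1090.4 and 1059 CPM in the siDGUOK libraries. TUFM is the mitochondrial counterpart of EEF1A1. It was at 306, 277 and 317 CPM in the siControl libraries and 354, 369 and 408 CPM in the siDGUOK libraries. These 3 of the 7 genes passed the adjusted p alone, beside 19.7% of all genes tested, with non-overlapping groups and log2 fold changes of 0.27, 0.35 and 0.33. TSFM and EEF1D had 0.32 and 0.19, GTPBP1 had −0.05 and EEF1A2 had −0.38, none past the test. Of the 22 mitochondrially encoded tRNA genes, 8 had enough counts to be tested. None was called by edgeR and 1 by DESeq2, MT-TL1, also the 1 gene with an unadjusted p under 0.05. MT-TL1 was lower in every siDGUOK library, with a log2 fold change of −1.87 (edgeR adjusted p = 0.08, DESeq2 adjusted p = 0.0465). Reads on tRNA were removed before counting, so these values do not measure tRNA abundance.

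The amino acid stress response around ATF4 was represented by 40 genes. The list also holds genes upstream of ATF4 (EIF2AK1, EIF2AK2, EIF2AK3, EIF2AK4 and EIF2S1), so its counts are not of ATF4 targets alone. By edgeR, 7 of the 40 were called higher and 1 lower, beside 7.42% and 6.68% of all genes tested. At the adjusted p alone 15 passed, 13 higher and 2 lower, beside 19.7%. The median log2 fold change was 0.20, also with CHAC1 at its lower bound. ATF4 itself was at 441, 483 and 481 CPM in siControl replicates 1, 2 and 3 and 579, 624 and 597 CPM in siDGUOK replicates 1, 2 and 3. The groups did not overlap, and the log2 fold change was 0.36 ± 0.07 (SE, edgeR adjusted p = 0.00154). EIF2AK4, which encodes GCN2 and was named after its values were seen, went the other way, falling in every siDGUOK library. It was at 115, 115 and 103 CPM in the siControl libraries and 83.8, 76.7 and 81.2 CPM in the siDGUOK libraries, a log2 change of −0.46 ± 0.10 (SE, edgeR adjusted p = 0.00282). SLC7A11, the cystine transporter, was at 32.4, 24.9 and 35.9 CPM in the siControl libraries and 77.1, 68.8 and 83.4 CPM in the siDGUOK libraries. Its partner SLC3A2 was at 265, 267 and 281 CPM in the siControl libraries and 379, 416 and 471 CPM in the siDGUOK libraries. Both were called higher, with log2 fold changes of 1.30 and 0.64. DDIT4 (0.95), an inhibitor of mTORC1, EIF4EBP1 (0.74), a repressor of cap-dependent translation, and the lipoprotein receptor VLDLR (0.66) were called higher as well. CHAC1, a glutathione-degrading enzyme, had 0 counts in each siControl library and 15, 16 and 50 counts in siDGUOK replicates 1, 2 and 3. Against a floor of 3 counts in each siControl library this was at least 6.76-fold higher, and at least 4.44-fold without siDGUOK replicate 3. ALDH18A1, of proline synthesis, was the gene called lower, from 155 ± 8.16 to 103 ± 6.10 CPM (SD, n = 3). DDIT3 was at 41.02, 41.9 and 42.1 CPM in the siControl libraries and 52.03, 50.04 and 50.7 CPM in the siDGUOK libraries, and TRIB3 was at 339, 387 and 388 CPM in the siControl libraries and 443, 404 and 442 CPM in the siDGUOK libraries. ASNS, the asparagine synthetase gene, had few counted reads. It was at 2.72, 1.49 and 2.29 CPM in the siControl libraries and 3.40, 3.08 and 2.94 CPM in the siDGUOK libraries. Reads shared by several genes were left out, and exon overlap was examined only for the synthetase genes, so the ASNS level is uncertain. For DDIT3, TRIB3 and ASNS the siDGUOK libraries were above the siControl libraries, and edgeR gave them adjusted p-values of 0.132, 0.0725 and 0.626, all above the threshold. Over the whole list the groups did not overlap for 26 of 40 genes, beside 36.0% of all genes tested. In 19 of these the siDGUOK libraries were above, and in 7 below, the siControl libraries.

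**Figure D5:**
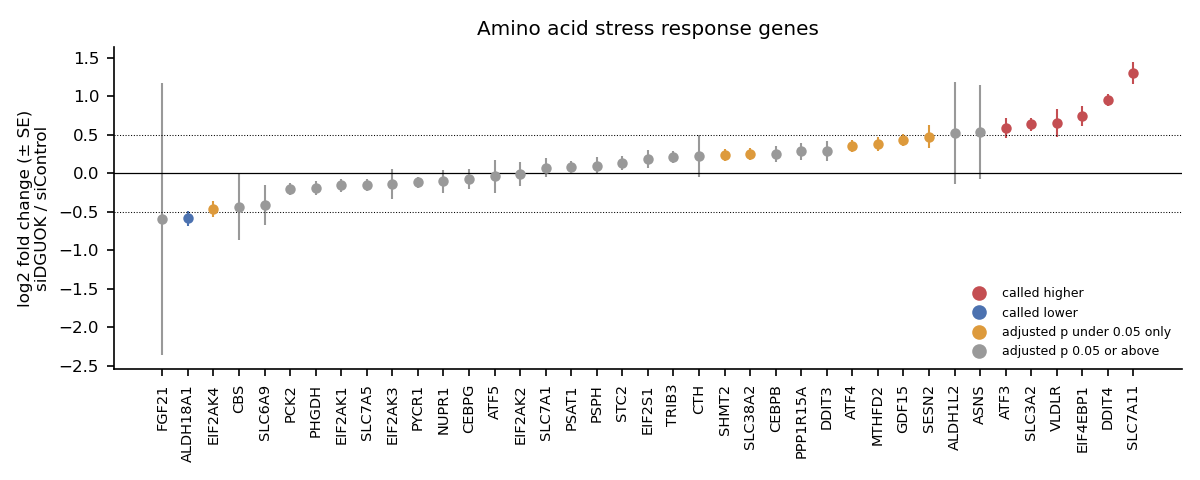
Log2 fold change of the amino acid stress response genes in siDGUOK against siControl cells, with standard errors as bars (n = 3 libraries a group) and dotted lines at −0.5 and 0.5, ordered by value; CHAC1, at 0 counts in siControl cells, is left out. SLC7A11 is highest at 1.30, ATF4 is at 0.36, and the called gene below 0 is ALDH18A1.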

How the data were processed

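The deposited whole-number counts per gene of 6 libraries were used. Per the methods the authors describe, tRNA, rRNA, adapter and spike-in reads were discarded first. The rest were aligned by STAR 2.6.1 to GRCh38 and, after low-complexity alignments were dropped, counted per gene by featureCounts 1.6.5. Its defaults disregard strand and omit reads shared by several genes. The labels also name Bowtie 1.1.2.

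In R 4.3.3, edgeR 4.0.16 kept genes by filterByExpr (minimum count 10), scaled them by TMM and fitted condition alone with robust quasi-likelihood. Tests were two-sided, with Benjamini-Hochberg adjustment over all 14476 genes tested. An SE is the absolute log2 fold change over the root of F. Library medians used log2 CPM with a prior count of 2. Replicates of a group varied beyond sampling noise, with a chi-square per df from 10.9 to 27.2.

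Members, lists and thresholds were chosen with earlier results of these data known. Every member could be named. Values of 1 mitochondrial member, which enters the counts, medians and sums, are not reported here, and it is left out of the pairs and of the plot of fold changes. Values in each library are given for called members, for up to 5 members past the adjusted p alone with the largest change, for GARS, KARS and WARS, and for the most and least abundant per length. Lists of up to 8 genes are named in full where the genes are in the count table. The list on delivery of charged tRNA held 8 genes, of which 7 were in the table. Longer lists, apart from those of cell type markers, are named by called genes (up to 6 rises and 6 falls) and by ATF4, DDIT3, ASNS and TRIB3. Of the hepatocyte markers, ALB, AFP and SERPINA1 are named. Values of HARS in each library were added after they were seen.

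Several choices followed a look at the results. Full library sizes were kept after fits with and without them. Lengths were changed from all exons of a gene, which inflated some lengths, to the canonical transcript of Gencode 44, and QARS and SARS2 were highest and lowest with both. The interferon-type and NRF1-type motifs were first searched with 10 letters and shortened to 9 to meet a rule on printing sequence. The shortening added GARS and IARS to the former and NARS and HARS2 to the latter, so the HARS2 match exists only in the shorter form. The stretch printed was narrowed to 10 bases on each side, and a requirement to avoid exons was dropped, because it left out called members. In a check on drawn counts with known changes, whose pass mark was loosened 2 times after its output was seen, edgeR called 97 of 100 genes changed by log2 1.5 and 78 of 100 changed by log2 1.

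Other settings were DESeq2 1.42.0, plain and shrunken, RLE or upper-quartile scaling, mitochondrially encoded genes left out, no low-count filter, a mean CPM above 10, the adjusted p alone, a replicate block, and each library left out.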

Additional observations from a re-analysis of the deposited data

How the results depend on the processing

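Of the called genes, CARS, EARS2, HARS2 and NARS2 were called in the same direction in all 15 alternatives that kept the fold change threshold, and WARS lost its call without siControl replicate 1 or siDGUOK replicate 3. At the adjusted p alone, 12 synthetase genes passed, 8 of them cytosolic, since no size was required. With 1 library left out, 1 to 3 cytosolic genes were called, and the cytosolic median log2 fold change ran from 0.0027 to 0.0818; the cause was not tested. Of the 12 genes past the adjusted p, 7 stayed past it in each of these alternatives. Others gained it with 1 library left out by edgeR, EPRS (0.0123 to 0.736) and IARS (0.0271 to 0.762) without siControl replicate 2, YARS (0.0355 to 0.400) without siDGUOK replicate 1 and LARS2 (0.0329 to 0.334) without siDGUOK replicate 2, the ranges being those of the adjusted p over the alternatives, with the lowest value in the fit named. Changes of sign were found for 6 uncalled genes of those reported, each with 1 library left out, and their log2 fold changes over those fits ran as follows: CARS2 (−0.29 to 0.0718), FARS2 (−0.188 to 0.313), FARSA (−0.0145 to 0.0828), QARS (−0.0482 to 0.0328), RARS2 (−0.172 to 0.0608), YARS2 (−0.167 to 0.0791). The cause was not tested. MARS was also called without a low-count filter. PARS2 and SARS2 had no value with a mean CPM above 10, since that filter left them out. With library sizes recomputed after filtering, an alternative chosen after seeing the data, 2032 genes were called in all, against 2041, and 5 synthetase genes. The replicate numbers gave no pairing (correlations of same-numbered libraries of 0.024, 0.017 and −0.0022 across genes after group means were removed); a replicate block gave 2077 calls in all, 5 of them synthetase genes. With 3 libraries a group, a log2 difference near the standard errors of PARS2 and SARS2, 0.32 and 0.44, could not be resolved.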
